A study of Mus musculus with 79 samples.

Results

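Whether a mouse liver answers low oxygen alike in the rest phase and in the active phase was addressed with 16 wild-type liver libraries, out of 79 in the whole series. The 16 are all the libraries of wild-type mice kept in constant darkness, 4 in each of 4 groups. They cover 6% oxygen at circadian time (CT) 16-20, 21% oxygen at CT16-20, 6% oxygen at CT4-8 and 21% oxygen at CT4-8. The mice were C57BL/6, aged 3 months, and all 4 groups had been held in a light-dark cycle and then for 2 days in constant darkness. Each mouse breathed its gas mixture for 4 h before liver was frozen, and all gas mixtures, 6% or 21% oxygen in nitrogen, flowed at a constant rate through a sealed cage. Circadian time counts from the start of the subjective day, so that CT4-8 lies in the rest phase of a nocturnal mouse and CT16-20 in its active phase. The quantity of interest was the interaction, that is the log2 fold change of 6% over 21% oxygen at CT16-20 minus the same at CT4-8. A positive value means a response that was higher at CT16-20, and a negative value one that was lower. Compared with these further below are 15 liver libraries labelled Per1,2 knockout, in constant darkness, and 16 wild-type ones from a light-dark cycle. Those mice, too, were aged 3 months.

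Low oxygen stabilises hypoxia-inducible factors (HIF), which turn on genes of glucose uptake, glycolysis, vessel growth and lipid storage. The circadian clock is a loop in which BMAL1 (encoded by Arntl) and CLOCK bind E-box sequences and drive their own repressors of the PER, CRY and REV-ERB families. In liver the clock, feeding and glucocorticoids together set the daily rhythm of glucose, lipid and amino acid metabolism. Glucocorticoids act through a nuclear receptor on genes of gluconeogenesis and stress adaptation.

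Each library held between 1.65 and 2.97 M counted reads, with group means of 2.39 ± 0.24 M at 6% and 2.26 ± 0.40 M at 21% oxygen for CT16-20, and of 1.89 ± 0.22 M and 2.26 ± 0.52 M for CT4-8 (SD, n = 4 each). Depth did not separate the oxygen groups in an exact two-sided permutation test (p = 0.571 at CT16-20 and p = 0.257 at CT4-8, adjusted over both p = 0.571 and p = 0.514). Hepatocyte markers (8 of 9 listed) summed to 89767 to 114080 CPM per library. One library stood apart, the 21% oxygen liver a of CT4-8. Its mean correlation with the other 3 of its group was 0.913, against 0.965 to 0.973 in the other 3 groups, and it lay at -57 on the first principal component, where the other 15 spanned -19.7 to 21.9. It also held 3981 CPM of the ribosomal RNA gene Rn45s, against 260.0 to 654 CPM in the others. Because it is 1 of the 4 control livers of CT4-8, each result is followed where needed by its value without it. Levels below are CPM, counts scaled to a common library total after TMM normalization, fold changes are log2 ± SE, and a gene is called, or said to have risen or fallen, at a Benjamini-Hochberg adjusted p under 0.05 in edgeR's quasi-likelihood test. The labels give each library as a separate sample and name no animal, so p-values measure the spread between these samples. Liver holds several cell types, and fewer cells of a type and less RNA per cell cannot be told apart.

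The oxygen response depended on circadian time for 138 of 8507 genes tested (1.62%). In 70 genes the response was higher at CT16-20 (0.823%) and in 68 it was lower (0.799%), and the median interaction over all genes was 0.01. Low oxygen itself changed 836 genes at CT16-20 (9.83%), of which 449 rose (5.28%) and 387 fell (4.55%), and 1001 genes at CT4-8 (11.8%), of which 485 rose (5.7%) and 516 fell (6.07%). Without library a the interaction was called for 197 of 8685 genes (2.27%), and the oxygen response for 1358 at CT16-20 (15.6%) and 999 at CT4-8 (11.5%). Library a is in neither group compared at CT16-20, where 830 of the 836 genes were called again. It enters that comparison only through the spread, scaling and gene filter shared by the fit. Of the 138 genes, 125 were called again without that library, all with the same sign. DESeq2 called 195 on all 16 libraries. The count was lower, by over 1.5 times, without any 1 of 6 livers. It was 68 without the 21% liver b of CT16-20, 73 and 74 without the 6% livers a and d of CT16-20, and 85, 73 and 73 without the 6% livers b, c and d of CT4-8. For oxygen at CT4-8, 615 genes were called without its 6% liver c and 526 with only the 8 libraries of that time. Called at both times were 340 genes, which is 40.7% of the CT16-20 list and 34% of the CT4-8 list. Of these, 322 moved in the same direction. The other 18 were called in opposite directions.

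**Figure D1:**
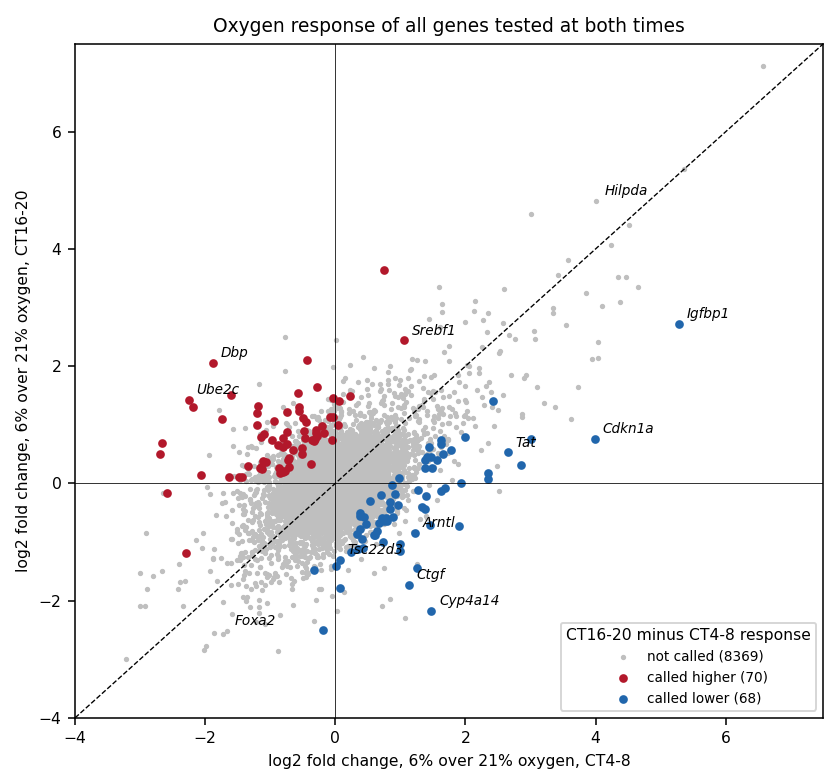
Log2 fold change of 6% over 21% oxygen at CT16-20 (vertical axis) against CT4-8 (horizontal axis) for all 8507 genes, with the 70 genes whose response was higher at CT16-20 in red and the 68 whose response was lower in blue. The dashed line marks equal responses, and the blue points below it include Cdkn1a, Tat and Igfbp1, whose rise was larger at CT4-8.

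The 68 genes with a lower response at CT16-20 mostly rose in the rest phase. In 44 of them the fold change was positive at CT4-8 and negative at CT16-20, in 22 it was positive at both times and in 2 negative at both. At CT4-8, 47 of the 68 were called higher and 0 lower, while at CT16-20 9 were called higher and 29 lower. The same groups can be read across time. In 21% oxygen 311 of 8507 genes differed between CT16-20 and CT4-8 (3.66%), 153 higher (1.8%) and 158 lower (1.86%) at CT16-20, and 47 of the 68 were among those called higher. In 6% oxygen only 105 genes differed (1.23%), 65 higher (0.764%) and 40 lower (0.47%), and of the 68 genes 7 were called lower and 0 higher. Without library a 328 genes (3.78%) differed between times in 6% oxygen and 341 (3.93%) in 21% oxygen. All 105 genes of the 6% comparison were called again. Library a is in neither group of that comparison and enters it only through the spread, scaling and gene filter shared by the fit. Which of these moved the count was not tested. In 6% oxygen the count was 33 and 42 without the 6% livers a and d of CT16-20, and 49, 53 and 45 without the 6% livers b, c and d of CT4-8. It was 310 with only the 8 libraries compared and 191 by DESeq2. In 21% oxygen it was 199, 175 and 189 without the 21% livers a, b and d of CT16-20, and 123 with only the 8 libraries compared. The order of the gases, with more genes in 21% than in 6% oxygen on all 16 livers, was thus turned in the fits on 8 libraries.

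The 70 genes with a higher response ran the other way. Here 63 had a negative fold change at CT4-8 and a positive one at CT16-20, 5 were positive at both times and 2 negative at both. Called at CT16-20 were 37 higher and 1 lower, and called at CT4-8 were 1 higher and 38 lower. Across time, 35 of the 70 were called lower at CT16-20 than at CT4-8 in 21% oxygen and 1 higher, while in 6% oxygen 21 were called higher and 0 lower. The absolute interaction had a median of 1.42 in these 70 genes and of 1.39 in the other 68. These counts describe genes that were chosen by the interaction and are no separate test.

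Most genes known to be induced by glucocorticoids rose at CT4-8. Of 19 members tested, 8 were called lower and 0 higher, where 0.799% and 0.823% of all genes were called, and 18 of the 19 interactions were negative, with a median of -1.16 against 0.01 over all genes. The 8 were Cdkn1a, Tat, Fkbp5, Tsc22d3, Errfi1, Zbtb16, Nfkbia and Klf15. At CT4-8, 15 of the 19 rose at 6% oxygen and 0 fell (median 1.48), beside 5.7% and 6.07% of all genes. At CT16-20 8 rose and 2 fell (median 0.47), beside 5.28% and 4.55% of all genes. In 21% oxygen 10 of the 19 were higher at CT16-20 than at CT4-8 and 0 lower, beside 1.8% and 1.86% of all genes. In 6% oxygen 0 were called either way, beside 0.764% of all genes called higher and 0.47% lower. Without library a, Dusp1 and Klf9 were also called lower, 10 in all, beside 1.37% of all genes. In 6% oxygen 3 of the 19 were then called lower at CT16-20 than at CT4-8, beside 1.66% of all genes. The list was chosen with earlier results of these data known, so its counts are no independent test.

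Cdkn1a (chr17:29090976-29100727, GRCm38) encodes p21, an inhibitor of cyclin-dependent kinases that stops the cell cycle. Cdkn1a stood at 239, 276, 274 and 245 CPM in the 6% livers of CT16-20, against 117, 165, 189.8 and 136 CPM in their 21% controls. At CT4-8 its 6% livers held 387, 234, 269 and 283 CPM, against 12.5, 24.3, 17.1 and 18.7 CPM in 21% oxygen. The controls of CT4-8 lay far below every other liver, while the 6% livers of both times overlapped. The fold change was 0.76 ± 0.18 (adjusted p = 0.00889) at CT16-20 and 3.99 ± 0.21 (adjusted p = 2.90e-11) at CT4-8, an interaction of -3.23 ± 0.27 (adjusted p = 4.32e-07). Tat (chr8:109990437-109999803), tyrosine aminotransferase, starts the breakdown of tyrosine and is a classical glucocorticoid target of liver. Tat stood at 5788, 6625, 7380.3 and 6344 CPM in the 6% livers of CT16-20, against 3759.8, 4686, 4795 and 4873 CPM in their 21% controls. In the rest phase the 6% livers held 7280.2, 6388, 6745 and 6162 CPM, against 675, 1305, 1120.2 and 1130.0 CPM in the 21% livers. Oxygen groups did not overlap at either time, and again the 6% livers of both times did. Its response was 0.53 ± 0.16 (adjusted p = 0.0431) at CT16-20 and 2.65 ± 0.17 (adjusted p = 4.81e-10) at CT4-8, and the interaction was -2.12 ± 0.23 (adjusted p = 2.93e-05).

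Both Fkbp5, a chaperone partner that dampens the glucocorticoid receptor, and Tsc22d3, the glucocorticoid-induced leucine zipper, fell at 6% oxygen in the active phase. Fkbp5 stood at 69.9, 88.4, 96 and 75.6 CPM in the 6% livers of CT16-20, against 128, 127, 166 and 155 CPM in their 21% controls. The CT4-8 livers held 101, 103, 148 and 117 CPM in 6% oxygen, against 101, 79.8, 60.5 and 60.2 CPM in 21% oxygen. All 6% livers lay below all 21% livers at CT16-20, and at CT4-8 the groups overlapped through library a, the highest control. Fkbp5 changed by -0.81 ± 0.18 (adjusted p = 0.00495) at CT16-20 and by 0.64 ± 0.18 (adjusted p = 0.0223) at CT4-8, with an interaction of -1.45 ± 0.25 (adjusted p = 0.00428). Tsc22d3 stood at 66.5, 62.9, 76.1 and 92.3 CPM in the 6% livers of CT16-20, against 170.2, 184, 159.8 and 220.3 CPM in their 21% controls. At CT4-8 its 6% livers held 51.4, 74.6, 71.8 and 69 CPM, against 69, 74.6, 47.8 and 63.8 CPM in 21% oxygen. The 21% livers of CT16-20 stood alone, more than all 12 others. Tsc22d3 fell by 1.30 ± 0.17 on the log2 scale at CT16-20 (adjusted p = 2.04e-05), whereas its fold change at CT4-8 was 0.07 ± 0.17 (adjusted p = 0.851). The interaction was -1.37 ± 0.24 (adjusted p = 0.00428).

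The other 4 called members rose at CT4-8. Errfi1, a feedback inhibitor of the EGF receptor, averaged 559 ± 88.5 CPM at 6% and 699 ± 97.8 CPM at 21% oxygen at CT16-20, and 707 ± 62.7 and 396 ± 34.1 CPM at CT4-8 (SD, n = 4 each), with an interaction of -1.16 ± 0.21 (adjusted p = 0.00436). Zbtb16, a zinc finger repressor, had a fold change of -0.13 ± 0.24 at CT16-20 and rose by 1.62 ± 0.26 at CT4-8, an interaction of -1.75 ± 0.36 (adjusted p = 0.0143). Nfkbia, the inhibitor of NF-kB, had 0.46 ± 0.15 at CT16-20 and 1.48 ± 0.16 at CT4-8, an interaction of -1.02 ± 0.22 (adjusted p = 0.0184). Klf15, a regulator of amino acid use and gluconeogenesis, had -0.02 ± 0.14 at CT16-20 and 0.87 ± 0.15 at CT4-8, an interaction of -0.90 ± 0.20 (adjusted p = 0.0254), which lost its call in 6 of 16 fits without 1 library, with adjusted p up to 0.0681. Members of the list that rose strongly at both times were not called for the interaction. They include the kinase gene Sgk1, with fold changes of 1.59 ± 0.16 at CT16-20 and 2.18 ± 0.17 at CT4-8 and an interaction of -0.60 ± 0.23 (adjusted p = 0.215), and the metal-binding protein gene Mt1, with 2.71 ± 0.31 at CT16-20 and 3.55 ± 0.33 at CT4-8 and an interaction of -0.84 ± 0.42 (adjusted p = 0.357).

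**Figure D2:**
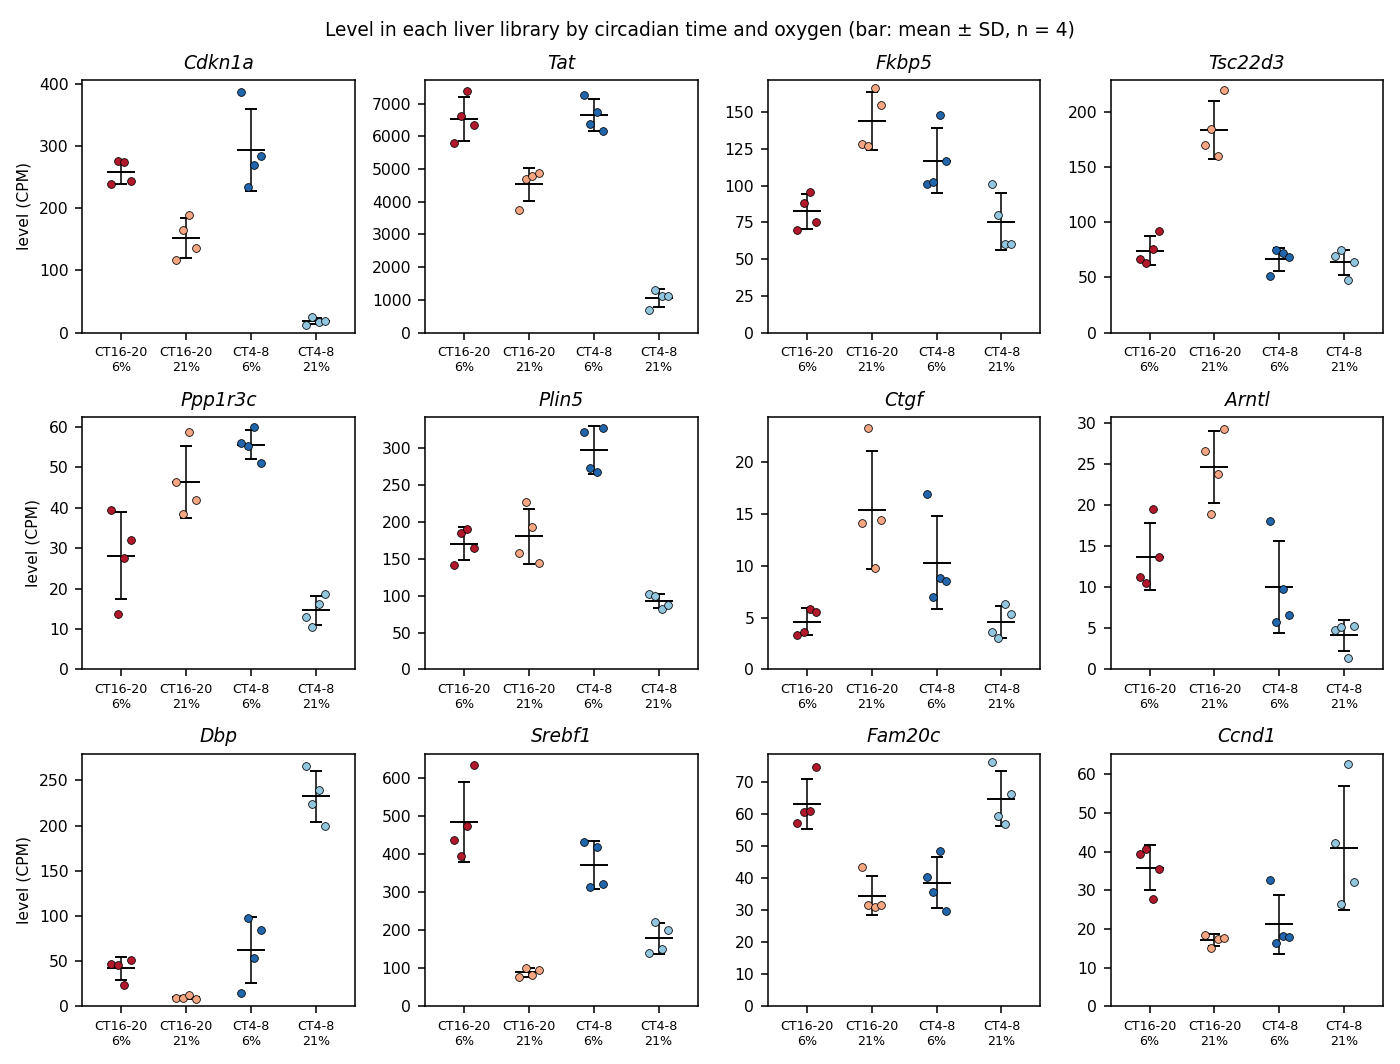
Level in CPM (vertical axes, from 0) of 12 genes in each of the 16 livers, by circadian time and oxygen, with the mean ± SD of 4 livers as bars. In Cdkn1a and Tat the 21% livers of CT4-8 are the low group, in Tsc22d3 the 21% livers of CT16-20 are the high group, and in Dbp the 21% livers are the lowest group at CT16-20 and the highest at CT4-8.

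Ppp1r3c, Ppp1r3b and Plin5 were also among the 14 lower responses of smallest p. Ppp1r3c encodes a subunit that targets protein phosphatase 1 to glycogen. Ppp1r3c stood at 39.5, 13.8, 27.4 and 32 CPM in the 6% livers of CT16-20, against 46.2, 38.4, 58.8 and 41.9 CPM in their 21% controls. In the rest phase the 6% livers held 56, 55.4, 59.9 and 51 CPM, against 13.1, 10.4, 16.2 and 18.7 CPM in the 21% livers. Only at CT4-8 were the oxygen groups apart, with every 6% liver higher. The response was -0.73 ± 0.23 (adjusted p = 0.0462) at CT16-20 and 1.91 ± 0.25 (adjusted p = 1.26e-05) at CT4-8, and the interaction -2.63 ± 0.34 (adjusted p = 1.32e-04). Its liver relative Ppp1r3b had fold changes of -0.40 ± 0.17 at CT16-20 and 1.34 ± 0.19 at CT4-8, an interaction of -1.74 ± 0.25 (adjusted p = 8.14e-04). Plin5, a coat protein of lipid droplets that links them to mitochondria, held 141, 185, 189.6 and 164 CPM at 6% and 158, 227, 192 and 144 CPM at 21% oxygen at CT16-20. At CT4-8 it held 322, 273, 267 and 328 CPM at 6% and 102, 98.9, 82.6 and 87.6 CPM at 21% oxygen. The 6% livers of CT4-8 were above all 12 others, and the interaction was -1.77 ± 0.22 (adjusted p = 1.27e-04).

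Igfbp1, a secreted binding protein of insulin-like growth factors that rises in fasting, responded at both times. Igfbp1 stood at 4447, 3721, 4559 and 3095 CPM in the 6% livers of CT16-20, against 321, 530.4, 877 and 678 CPM in their 21% controls. The CT4-8 livers held 3323, 4839, 3088 and 2733 CPM in 6% oxygen, against 69, 72, 94.8 and 123 CPM in 21% oxygen. The 6% livers of both times overlapped, and the controls of CT16-20 were all above those of CT4-8. Its rise was 2.72 ± 0.27 (adjusted p = 1.66e-06) at CT16-20 and 5.28 ± 0.30 (adjusted p = 4.81e-10) at CT4-8, an interaction of -2.56 ± 0.37 (adjusted p = 9.25e-04). Of 15 genes of gluconeogenesis and fasting tested, 2 were called lower (Tat and Igfbp1) and 0 higher, with a median interaction of -0.79. Of all genes 0.799% were called lower and 0.823% higher. Without library a, 4 were called lower, with Pck1 and Foxo1 added, beside 1.37% of all genes. Pck1, the rate-limiting enzyme of gluconeogenesis, averaged 3859 ± 598 CPM at 6% and 5587 ± 411 CPM at 21% oxygen at CT16-20, and 4574 ± 536 and 3828 ± 686 CPM at CT4-8. Its interaction was -0.79 ± 0.21 (adjusted p = 0.0641) on all libraries and -0.74 ± 0.18 (adjusted p = 0.0307) without library a. G6pc, glucose-6-phosphatase, had an interaction of -1.38 ± 0.40 (adjusted p = 0.103).

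Ctgf, a matricellular growth factor and target of YAP, moved in opposite directions. Ctgf stood at 3.33, 3.65, 5.82 and 5.58 CPM in the 6% livers of CT16-20, against 14.1, 23.3, 9.74 and 14.4 CPM in their 21% controls. At CT4-8 its 6% livers held 16.9, 6.99, 8.78 and 8.51 CPM, against 3.57, 3.04, 6.32 and 5.35 CPM in 21% oxygen. The oxygen groups were apart at both times, at low levels, and Ctgf overlaps the antisense gene Gm15270. It changed by -1.74 ± 0.33 (adjusted p = 0.00145) at CT16-20 and by 1.13 ± 0.35 (adjusted p = 0.0411) at CT4-8, an interaction of -2.87 ± 0.49 (adjusted p = 0.00356), and without library a the change at CT4-8 was not called (adjusted p = 0.0598). Slc45a3, a sugar transporter gene that overlaps Gm29103, had the third smallest p of the lower group. Slc45a3 stood at 64.5, 36.9, 62.4 and 63.9 CPM in the 6% livers of CT16-20, against 78.9, 101, 98.9 and 94.6 CPM in their 21% controls. In the rest phase the 6% livers held 76.5, 72.8, 74.9 and 71.4 CPM, against 22.6, 36.4, 23.5 and 25.1 CPM in the 21% livers. Every 6% liver was below the controls at CT16-20 and above them at CT4-8. The response was -0.72 ± 0.17 (adjusted p = 0.01) at CT16-20 and 1.45 ± 0.19 (adjusted p = 1.17e-05) at CT4-8, and the interaction -2.17 ± 0.25 (adjusted p = 5.15e-05). Tns1, a focal adhesion protein gene, had an interaction of -1.22 ± 0.21 (adjusted p = 0.00356). Susd6 had -1.39 ± 0.24 (adjusted p = 0.00428) and Fam222a -2.26 ± 0.40 (adjusted p = 0.00428).

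Angptl4, a secreted inhibitor of lipoprotein lipase and a target of both HIF and PPARs, was the only HIF-list gene outside glycolysis called for the interaction. It averaged 219 ± 68.4 CPM at 6% and 477 ± 122 CPM at 21% oxygen at CT16-20, and 290.4 ± 34.7 and 229 ± 32.7 CPM at CT4-8. It fell at CT16-20 (-1.13 ± 0.20, adjusted p = 8.28e-04) and its fold change at CT4-8 was 0.35 ± 0.20 (adjusted p = 0.29), an interaction of -1.47 ± 0.29 (adjusted p = 0.00938). Lower responses were also called for Lpin1, a phosphatidate phosphatase (-1.80 ± 0.42, adjusted p = 0.0362), for Cyp4a14, a fatty acid hydroxylase induced by PPARα (-3.65 ± 0.81, adjusted p = 0.0431), and for Cebpb, a transcription factor of gluconeogenesis and the acute phase (-0.88 ± 0.21, adjusted p = 0.0349). These 3 calls are near the threshold: leaving out 1 library ended the call in 9, 14 and 12 of 16 fits, with adjusted p up to 0.0834, 0.0962 and 0.0874. Without library a the adjusted p was 0.0834 for Lpin1 and 0.057 for Cyp4a14, and 6.09e-04 for Cebpb, which kept its call.

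**Figure D3:**
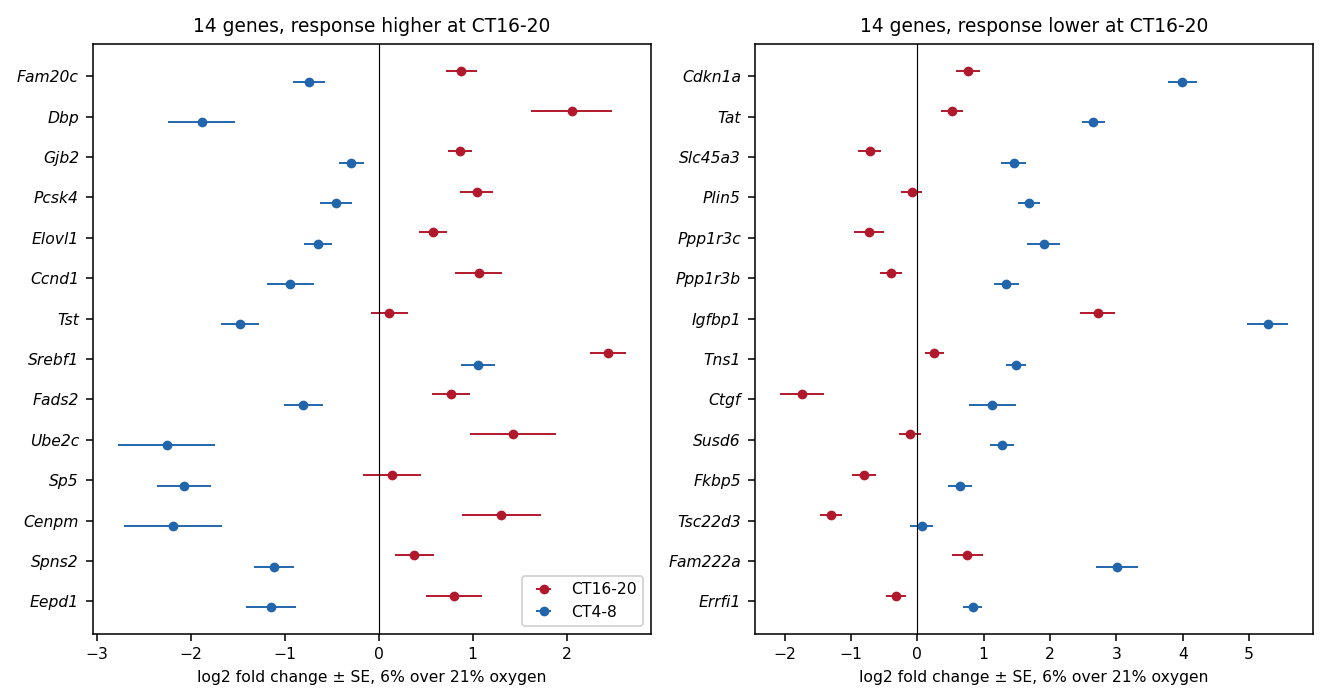
Log2 fold change ± SE of 6% over 21% oxygen at CT16-20 (red) and CT4-8 (blue) for the 14 genes with a higher and the 14 with a lower response of smallest p. Dbp lies at 2.05 at CT16-20 and -1.88 at CT4-8, and Cdkn1a at 0.76 and 3.99.

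Within the clock, 1 of 14 core genes (Arntl, lower) and 1 of 15 output genes (Dbp, higher) were called, against 1.62% of all genes. Dbp encodes a PAR bZIP activator driven directly by BMAL1 and CLOCK, and overlaps Sphk2 on the other strand. Whether counting used strand is not given in the sources used here, so reads of such pairs cannot be told apart. The same limit holds for other genes named here, and not all are marked. Among them are Elovl1 (with Cdc20), Ccnd1 (LTO1), Ube2c (Tnnc2), Spns2 (Mybbp1a) and Nr1d1 (Thra) on the other strand. Per3 overlaps Camta1 on the same strand. Dbp stood at 47, 46.2, 23.3 and 51.2 CPM in the 6% livers of CT16-20, against 9.24, 9.49, 13 and 7.92 CPM in their 21% controls. The CT4-8 livers held 15.2, 97.3, 53.7 and 84.1 CPM in 6% oxygen, against 266, 224, 239 and 199.5 CPM in 21% oxygen. In 21% oxygen the livers of CT4-8 held the most and those of CT16-20 the least, and in 6% oxygen both times overlapped. Dbp rose at CT16-20 by 2.05 ± 0.43 (adjusted p = 0.00593) and fell at CT4-8 (-1.88 ± 0.36, adjusted p = 0.00282), an interaction of 3.94 ± 0.56 (adjusted p = 0.00233). Arntl was at 11.2, 10.5, 19.5 and 13.7 CPM at 6% and 26.6, 19, 23.8 and 29.3 CPM at 21% oxygen at CT16-20. It was at 18.1, 5.83, 9.81 and 6.62 CPM at 6% and 4.76, 5.2, 1.35 and 5.35 CPM at 21% oxygen at CT4-8. The pattern was the reverse of Dbp, with -0.84 ± 0.29 (adjusted p = 0.0695) at CT16-20 and 1.23 ± 0.39 (adjusted p = 0.0411) at CT4-8. Its interaction of -2.07 ± 0.48 (adjusted p = 0.0298) rests on few counts and was lost in 7 of the 16 fits without 1 library, with adjusted p up to 0.0793.

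Several other clock genes changed with oxygen at 1 or both times without a called interaction. Ciart, a repressor of BMAL1 and CLOCK, averaged 38.2 ± 16.8 CPM at 6% and 4.85 ± 1.6 CPM at 21% oxygen at CT16-20, and 57.4 ± 12.4 and 12.9 ± 5.04 CPM at CT4-8, and rose at both times (2.93 ± 0.35 at CT16-20 and 2.14 ± 0.30 at CT4-8, adjusted p = 1.31e-05 and 6.89e-05). The repressor Bhlhe40 rose by 1.94 ± 0.24 at CT16-20 and 1.14 ± 0.23 at CT4-8, and Cry2 by 1.01 ± 0.21 at CT16-20 and 0.79 ± 0.21 at CT4-8. Per1 rose at CT4-8 (1.48 ± 0.24, adjusted p = 2.99e-04), with 0.69 ± 0.23 (adjusted p = 0.0641) at CT16-20 and an interaction of -0.79 ± 0.33 (adjusted p = 0.261). Per2 was called at neither time, with 0.74 ± 0.32 (adjusted p = 0.169) at CT16-20 and -0.13 ± 0.40 (adjusted p = 0.877) at CT4-8. Cry1 fell at CT16-20 (-1.03 ± 0.25, adjusted p = 0.00999) and had -0.17 ± 0.34 at CT4-8. Nfil3, a repressor that competes with Dbp for D-box sequences, rose at both times, by 0.67 ± 0.18 at CT16-20 and 1.71 ± 0.21 at CT4-8. Its interaction was -1.03 ± 0.28 (adjusted p = 0.0621), and it was called without library a (adjusted p = 0.0268).

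The repressor gene Nr1d1 differed between times in both gases. Nr1d1, which encodes REV-ERBα, averaged 9.52 ± 3.32 CPM at CT16-20 and 85.7 ± 22.8 CPM at CT4-8 in 6% oxygen, and 5.34 ± 0.914 and 105 ± 15.3 CPM in 21% oxygen, so that its 2 times were apart in each gas. Its interaction was 1.14 ± 0.36 (adjusted p = 0.129). Tef, another PAR bZIP gene, fell at CT4-8 (-1.10 ± 0.24, adjusted p = 0.00522), where library a held 171 CPM and the other 3 controls 89.9 to 91.2 CPM. Hlf had -0.71 ± 0.25 (adjusted p = 0.0683) at CT4-8. Per3 was near its detection limit at 0 to 8.12 CPM and had an interaction of 1.91 ± 0.74 (adjusted p = 0.213).

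Srebf1, Fads2 and Elovl1 were among the 14 higher responses of smallest p. Srebf1, which overlaps Rai1 on the other strand, encodes SREBP-1, the insulin-responsive activator of fatty acid synthesis. Srebf1 stood at 439, 395, 474 and 636 CPM in the 6% livers of CT16-20, against 78.3, 101, 81.9 and 96.9 CPM in their 21% controls. At CT4-8 its 6% livers held 433, 314, 418 and 323 CPM, against 140.4, 223, 151 and 201 CPM in 21% oxygen. It rose at both times, and in 21% oxygen all livers of CT16-20 were below all livers of CT4-8. The rise was 2.44 ± 0.19 (adjusted p = 9.44e-09) at CT16-20 and 1.05 ± 0.18 (adjusted p = 4.28e-04) at CT4-8, an interaction of 1.39 ± 0.26 (adjusted p = 0.00615). Fads2, the Δ6 desaturase of polyunsaturated fatty acids, held 120.2, 221, 91.1 and 146 CPM at 6% and 74.5, 91.9, 84.4 and 88.5 CPM at 21% oxygen at CT16-20. At CT4-8 it held 64.2, 64.7, 58.3 and 48.2 CPM at 6% and 127, 86.7, 108 and 89.9 CPM at 21% oxygen, with every 6% liver below every control. Its response was 0.77 ± 0.20 (adjusted p = 0.017) at CT16-20 and -0.80 ± 0.21 (adjusted p = 0.0156) at CT4-8, an interaction of 1.57 ± 0.29 (adjusted p = 0.00659). Without library a, its fall at CT4-8 was not called (adjusted p = 0.0609). Elovl1, an elongase of very long fatty acids, had 0.57 ± 0.15 at CT16-20 and -0.65 ± 0.15 at CT4-8, an interaction of 1.22 ± 0.21 (adjusted p = 0.00428). Over 22 genes of fatty acid synthesis, a list that does not hold Elovl1, 2 were called higher (Srebf1 and Fads2) and 1 lower (Lpin1), with a median interaction of 0.09. Of all genes 0.823% were called higher and 0.799% lower.

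Of 22 genes of cholesterol synthesis tested, 10 rose at CT16-20 and 0 fell (median 0.85), beside 5.28% of all genes that rose. At CT4-8 2 rose and 0 fell (median 0.04), beside 5.7% of all genes that rose. The interaction was positive in 21 of 22, with a median of 0.49 against 0.01 over all genes, and was called higher for 3, Mvd among them, and lower for 0, where 0.823% of all genes were called higher. This list, too, was chosen with earlier results of these data known, so its counts are no independent test. Mvd, mevalonate diphosphate decarboxylase, stood at 69.5, 27.6, 41.6 and 57.3 CPM at 6% and 10.9, 9.06, 6.49 and 19.6 CPM at 21% oxygen at CT16-20. At CT4-8 it stood at 12.3, 17.5, 14.5 and 11.8 CPM at 6% and 38.1, 11.7, 10.4 and 17.7 CPM at 21% oxygen, and only the groups of CT16-20 were apart. It rose at CT16-20 (2.10 ± 0.39, adjusted p = 0.00168) and had -0.43 ± 0.41 (adjusted p = 0.544) at CT4-8, an interaction of 2.54 ± 0.56 (adjusted p = 0.0286). Leaving out 1 library ended this call in 9 of 16 fits, with adjusted p up to 0.0828. Insig1, a brake on SREBP processing, rose at both times (1.69 ± 0.24 at CT16-20 and 0.81 ± 0.24 at CT4-8), with an interaction of 0.88 ± 0.33 (adjusted p = 0.201) on all libraries and 1.09 ± 0.23 (adjusted p = 0.00967) without library a.

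**Figure D4:**
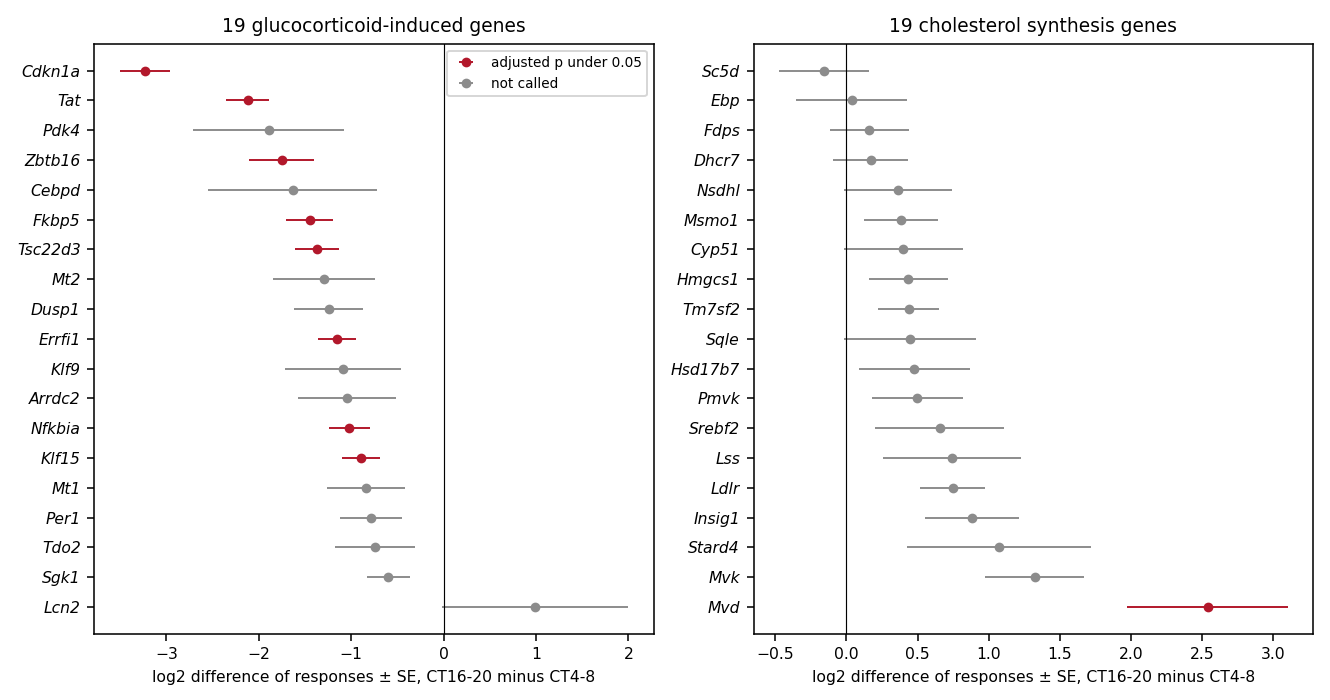
Interaction ± SE (log2 difference of the oxygen responses, CT16-20 minus CT4-8) of 19 glucocorticoid-induced genes and 19 of the 22 cholesterol synthesis genes, with called genes in red. In the glucocorticoid list 18 of 19 points lie below 0, and of the cholesterol genes 18 of 19 lie above it.

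Cell cycle genes showed higher responses at CT16-20 for 4 of 13 members (Ccnd1, Mcm3, Mcm2 and Ccnb2) and a lower one for 1, the inhibitor Cdkn1a, with a median interaction of 1.14. Over all genes these shares were 0.823% and 0.799%. The cell cycle list was likewise chosen with earlier results of these data known, so its counts are no independent test. Without library a 4 were called higher and 1 lower, with a median of 0.79, beside 0.898% and 1.37% of all genes. At CT16-20 7 of the 13 rose and 0 fell, where 5.28% of all genes rose and 4.55% fell. At CT4-8 2 rose and 2 fell, where 5.7% rose and 6.07% fell. The inhibitor Cdkn1a is among those that rose at each time. Ccnd1, cyclin D1, which drives entry into the cycle, held 39.5, 40.6, 27.9 and 35.5 CPM at 6% and 18.5, 15.1, 17.3 and 17.7 CPM at 21% oxygen at CT16-20. At CT4-8 it held 32.7, 16.3, 18.1 and 18 CPM at 6% and 42.3, 26.4, 62.7 and 32.1 CPM at 21% oxygen, and these groups overlapped. The response was 1.06 ± 0.25 (adjusted p = 0.00806) at CT16-20 and -0.94 ± 0.25 (adjusted p = 0.0165) at CT4-8, an interaction of 2.01 ± 0.35 (adjusted p = 0.00428). Mcm3 and Mcm2 encode subunits of the replicative helicase and had interactions of 1.48 ± 0.31 (adjusted p = 0.0156) and 2.11 ± 0.53 (adjusted p = 0.0431), where Mcm2 lost its call in 13 of 16 fits without 1 library, with adjusted p up to 0.0999. The mitotic genes Ube2c, Cenpm and Ccnb2 were counted at low levels, at most 15.8 CPM in any liver, and all 3 fell at CT4-8. Ube2c had an interaction of 3.69 ± 0.69 (adjusted p = 0.00714), Cenpm of 3.50 ± 0.67 (adjusted p = 0.00877) and Ccnb2 of 3.19 ± 0.81 (adjusted p = 0.0472), and DESeq2 called neither Cenpm nor Ccnb2. Ccnb2 lost its call in 13 of 16 fits without 1 library, with adjusted p up to 0.124.

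The gene with the smallest p among the higher responses was Fam20c, a kinase of secreted proteins. Fam20c stood at 57, 60.4, 60.7 and 74.6 CPM in the 6% livers of CT16-20, against 43.5, 31.5, 31 and 31.7 CPM in their 21% controls. In the rest phase the 6% livers held 40.3, 35.5, 48.5 and 29.8 CPM, against 76.2, 59.4, 56.9 and 66.2 CPM in the 21% livers. Every 6% liver was above the controls at CT16-20 and below them at CT4-8. Its response was 0.88 ± 0.17 (adjusted p = 0.00154) at CT16-20 and -0.74 ± 0.17 (adjusted p = 0.00619) at CT4-8, an interaction of 1.62 ± 0.24 (adjusted p = 8.14e-04). Gjb2, a gap junction protein of hepatocytes, rose at CT16-20 (0.86 ± 0.13, adjusted p = 1.58e-04) and had -0.29 ± 0.13 (adjusted p = 0.162) at CT4-8, an interaction of 1.16 ± 0.19 (adjusted p = 0.00233). Pcsk4, a proprotein convertase, behaved likewise with an interaction of 1.5 ± 0.25 (adjusted p = 0.00318). For Tst, Sp5, Spns2 and Eepd1 it was the fall at CT4-8 that was called. Tst, the sulfur transferase rhodanese, averaged 35.6 ± 10.7 CPM at 6% and 32.8 ± 3.53 CPM at 21% oxygen at CT16-20, and 26.6 ± 7.09 and 73.9 ± 7.74 CPM at CT4-8, an interaction of 1.59 ± 0.28 (adjusted p = 0.00436). Sp5, a target of Wnt signalling, averaged 4.05 ± 0.912 and 3.58 ± 0.576 CPM at CT16-20, and 2.95 ± 1.08 and 12.6 ± 1.21 CPM at CT4-8, an interaction of 2.22 ± 0.43 (adjusted p = 0.00877).

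Spns2, a sphingosine-1-phosphate exporter, and Eepd1, an endonuclease domain protein, had interactions of 1.49 ± 0.30 (adjusted p = 0.0123) and 1.95 ± 0.40 (adjusted p = 0.0155). Rnf43, a Wnt feedback inhibitor and the only called gene of 15 pericentral ones, fell at CT4-8, with 9.57, 5.68, 2.49 and 5.07 CPM at 6% and 5.98, 7.34, 4.69 and 7.92 CPM at 21% oxygen at CT16-20, and 1.17, 4.66, 4.13 and 4.73 CPM at 6% and 13.1, 22.5, 23 and 30.1 CPM at 21% oxygen at CT4-8. Its interaction was 2.42 ± 0.53 (adjusted p = 0.0207), and without the 6% liver a of CT16-20 the adjusted p was 0.0843. Of all genes 1.62% were called for the interaction. The growth gene Myc (1.94 ± 0.50, adjusted p = 0.04999), the stress gene Gadd45a (2.89 ± 0.67, adjusted p = 0.0427), the respiratory subunit gene Cox8a (1.02 ± 0.25, adjusted p = 0.0392) and the acute phase gene Orm1 (1.42 ± 0.33, adjusted p = 0.0302) were called higher near the threshold. Leaving out 1 library ended these calls in 14, 14, 13 and 10 of 16 fits, with adjusted p up to 0.122, 0.102, 0.112 and 0.102. Myc was also not called under RLE scaling.

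The HIF targets Hilpda, Vegfa, Ankrd37, Ddit4 and Slc2a1 rose at both times, with no called interaction. Of 12 HIF-driven glycolysis genes 6 rose at CT16-20 and 4 at CT4-8. Of 20 other HIF targets 12 rose and 1 fell at CT16-20, and 11 rose and 1 fell at CT4-8. Of all genes 5.28% rose and 4.55% fell at CT16-20, and 5.7% rose and 6.07% fell at CT4-8. Hilpda is a HIF target whose product blocks lipid droplet breakdown. Hilpda stood at 358, 252, 290.2 and 230.3 CPM in the 6% livers of CT16-20, against 8.7, 7.34, 13 and 10.2 CPM in their 21% controls. The CT4-8 livers held 53.7, 171, 104 and 114 CPM in 6% oxygen, against 10.1, 4.77, 5.87 and 7.02 CPM in 21% oxygen. Oxygen groups were far apart at both times, and in 6% oxygen the livers of CT16-20 all exceeded those of CT4-8. The rise was 4.82 ± 0.30 (adjusted p = 1.24e-09) at CT16-20 and 4.01 ± 0.31 (adjusted p = 2.45e-08) at CT4-8, and the interaction of 0.81 ± 0.44 (adjusted p = 0.405) was not called. Vegfa, the vascular growth factor, rose by 1.29 ± 0.16 at CT16-20 and 1.01 ± 0.16 at CT4-8 (interaction adjusted p = 0.587). Ankrd37 rose by 4.07 ± 0.50 at CT16-20 and 4.24 ± 0.44 at CT4-8, Ddit4, a brake on mTORC1, by 3.10 ± 0.43 at CT16-20 and 4.37 ± 0.52 at CT4-8, and the glucose transporter Slc2a1 by 1.83 ± 0.27 at CT16-20 and 1.36 ± 0.27 at CT4-8. Hif1a itself was at 4.46 to 12.8 CPM in all 16 livers, with fold changes of 0.12 ± 0.29 (adjusted p = 0.851) and 0.38 ± 0.30 (adjusted p = 0.456). Over the lists, 0 of 12 HIF-driven glycolysis genes and 1 of 20 other HIF targets (Angptl4) were called for the interaction, with medians of 0.02 and 0.02. Of all genes 1.62% were called, with a median of 0.01. For single genes the SE of 0.23 to 0.84 in these examples is wide, so that smaller differences were not detectable with 4 livers a group.

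Other lists gave few calls, where 1.62% of all genes were called for the interaction. Among 18 immediate early genes 1 was called higher (Myc) and 0 lower, while 14 rose at CT16-20 and 12 at CT4-8. Of all genes 5.28% rose at CT16-20 and 5.7% at CT4-8. Without library a, Myc was not called and Dusp1 and Klf4 were called lower. No interaction was called among 12 genes of the integrated stress response, 18 of the unfolded protein response, 15 heat shock genes, 17 bile acid genes, 24 drug metabolism genes and 16 periportal genes, with medians from -0.27 to 0.13. Without library a, Herpud1 of the unfolded protein response and Pck1 of the periportal list were called lower. One gene each was called among 29 of fatty acid oxidation (Cyp4a14, lower), 25 of urea and amino acid metabolism (Tat, lower), 37 of respiration (Cox8a, higher) and 18 liver transcription factors (Cebpb, lower), and 1 each way among 14 p53 targets (Gadd45a higher, Cdkn1a lower) and 24 acute phase genes (Orm1 higher, Nfkbia lower). Foxa2, one of those transcription factors, fell at both times, by 2.51 ± 0.24 at CT16-20 and 1.66 ± 0.23 at CT4-8 on the log2 scale, with an interaction of -0.85 ± 0.34 (adjusted p = 0.222). Bok, a BCL-2 family gene, fell at CT16-20 (-1.55 ± 0.23, adjusted p = 1.27e-04) and had -0.42 ± 0.23 (adjusted p = 0.244) at CT4-8. Its interaction of -1.13 ± 0.33 (adjusted p = 0.0918) was called without library a (adjusted p = 0.00965). Ppara had -0.06 ± 0.32 (adjusted p = 0.951) and Cyp7a1, the rate-limiting enzyme of bile acid synthesis, 1.87 ± 0.70 (adjusted p = 0.218).

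Markers of other cell types gave 0 called interactions on all 16 libraries. Tested were 12 Kupffer cell, 12 endothelial, 10 stellate and 3 cholangiocyte markers. For T, B and NK cells, erythroid cells and pancreas 1 marker each was tested, and for neutrophils 0. With 1.62% of all genes called, 0 calls among so few members cannot show whether these cells responded alike at both times. Summed Kupffer cell markers (12 of 12 listed) ran from 903 to 1129 CPM at 6% and 814 to 1608 CPM at 21% oxygen at CT16-20, and from 956 to 1356 and 1049 to 2005 CPM at CT4-8, where the highest value was library a. Over all livers endothelial markers (12 of 12) summed to 478 to 678 CPM, stellate markers (12 of 12) to 359 to 695 CPM, T, B and NK cell markers (6 of 12) to 7.10 to 125 CPM and neutrophil markers (3 of 10) to 0.595 to 12.3 CPM. Defining markers of immune cells were thus low, while the erythroid marker (1 of 8) lay at 122 to 262 CPM and pancreas markers (2 of 10) at 17.7 to 49.0 CPM. Cholangiocyte markers (6 of 8) ran from 451 to 808 CPM at 6% and 841 to 955 CPM at 21% oxygen at CT16-20, which did not overlap, and from 826 to 1038 and 778 to 1070 CPM at CT4-8. Of the 3 tested, 1 fell and 0 rose at CT16-20, beside 4.55% of all genes that fell, so the sum rests on few genes. The cholangiocyte marker Pigr was called lower for the interaction without library a. Library a held the highest stellate sum, 695 CPM, and the highest cholangiocyte sum, 1070 CPM. It also held the lowest sums of the pericentral list, 4442 CPM, and of the periportal list, 28608 CPM. The part of these cell types and zones in the results was not tested.

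The 250 bases before the RefSeq start sites (GRCm38.p6) were searched on both strands for 5 motifs, for the 6782 of 8502 tested genes with a promoter in the table. The E-box CACGTG was found in 5 of 53 genes with a lower response (9.43%), in 6 of 53 with a higher one (11.3%) and in 10.6% of all. The hypoxia response element, ACGTGC or GCGTGC, was found in 32.1%, 30.2% and 25.8%, and it can overlap an E-box. The ROR and REV-ERB element, TAGGTCA or TGGGTCA, was found in 7.55%, 9.43% and 5.34%, the D-box TTANGTAA in 1.89%, 0% and 1.77%, and the glucocorticoid response element ACANNNTGT in 3.77%, 1.89% and 4.36%. Of the 17 glucocorticoid-induced genes with a promoter, 4 held the last motif (23.5%) and 5 an E-box (29.4%). A match is a stretch of letters and no measured binding. Shown here are 4 promoters that stand for the kinds of response above, with the named motif in capitals, each 5′ to 3′ on the strand of its gene. Sgk1 (1 of its 6 windows, chr10:21993640-21993889, plus strand) carries the glucocorticoid element 186 bases before the start and rose at both times. Fkbp5 (chr17:28486150-28486399, minus strand) carries an E-box 169 bases before the start and moved in opposite directions. Ciart (chr3:95882229-95882478, minus strand) carries 3 E-boxes, and Hilpda (1 of its 2 windows, chr6:29272376-29272625, plus strand) 3 hypoxia elements.
Sgk1: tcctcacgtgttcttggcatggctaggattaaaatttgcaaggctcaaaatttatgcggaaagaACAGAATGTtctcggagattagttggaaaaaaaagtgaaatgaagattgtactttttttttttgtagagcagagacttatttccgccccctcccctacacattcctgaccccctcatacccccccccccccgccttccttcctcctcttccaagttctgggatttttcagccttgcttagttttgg
Fkbp5: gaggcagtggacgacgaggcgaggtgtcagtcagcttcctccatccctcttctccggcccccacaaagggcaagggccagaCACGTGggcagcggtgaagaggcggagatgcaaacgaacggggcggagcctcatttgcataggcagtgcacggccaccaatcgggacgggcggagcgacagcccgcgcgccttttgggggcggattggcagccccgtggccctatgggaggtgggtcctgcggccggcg
Ciart: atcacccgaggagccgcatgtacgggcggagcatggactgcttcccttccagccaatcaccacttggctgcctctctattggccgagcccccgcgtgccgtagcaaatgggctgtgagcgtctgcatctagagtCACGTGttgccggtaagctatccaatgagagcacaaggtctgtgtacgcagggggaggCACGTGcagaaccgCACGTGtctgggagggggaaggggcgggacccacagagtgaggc
Hilpda: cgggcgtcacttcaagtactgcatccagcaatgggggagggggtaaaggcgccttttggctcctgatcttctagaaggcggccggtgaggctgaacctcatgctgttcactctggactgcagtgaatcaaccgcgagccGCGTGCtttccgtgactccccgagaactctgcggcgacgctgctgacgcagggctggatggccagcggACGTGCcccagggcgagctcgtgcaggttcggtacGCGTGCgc

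In livers labelled Per1,2 double knockout (KO), kept in the same darkness, 15 libraries gave the same 4 groups, with 3 at CT16-20 in 6% oxygen. Counts of Per1 and Per2 did not check the label, because they were present in KO livers (group means of 19.1 to 28.8 and 7.38 to 24.6 CPM) and the deleted part of each gene is not given in the sources used here. Among 138 genes called in WT, 134 were measured in the KO table. There 90 had the sign of WT and 0 were called, and the median absolute interaction was 0.33, against 1.42 in WT, where the genes had been chosen. The median SE was 0.37 in KO and 0.30 in WT. In KO alone, 1 of 8520 genes was called for the interaction (0.0117%). The 19 glucocorticoid-induced genes gave 0 calls in KO, with a median interaction of -0.29. Tested directly in a joint fit, the WT and KO interactions differed for 4 of 9011 genes (0.0444%), all lower in WT, and for 18 by DESeq2. Leaving out 1 library at a time gave 0 to 19 genes, with 0 without the 21% liver a of CT16-20 in KO and 19 without the 6% liver b of CT4-8 in KO. Without library a, 5 of 9072 were called (0.0551%).

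The 4 genes were Slc45a3, Wrnip1, Abtb2 and 1700017B05Rik, named because they are all the calls. Slc45a3 had an interaction of -2.17 ± 0.25 in WT and 0.05 ± 0.29 in KO, a difference of -2.23 ± 0.39 (adjusted p = 0.0162). Wrnip1, a helicase partner in DNA repair, had -1.15 ± 0.24 and 0.54 ± 0.23, a difference of -1.70 ± 0.33 (adjusted p = 0.0393). Abtb2 had -0.99 ± 0.32 and 1.61 ± 0.40, a difference of -2.61 ± 0.51 (adjusted p = 0.0393). Neither of its interactions was called on its own (adjusted p = 0.132 in WT and 0.375 in KO). For 1700017B05Rik it was -2.55 ± 0.34 and 0.22 ± 0.43, a difference of -2.77 ± 0.56 (adjusted p = 0.0401), which without library a had an adjusted p of 0.0724. For Cdkn1a the interaction was -3.23 ± 0.27 in WT and -1.0 ± 1.15 in KO, and the difference of -2.24 ± 1.13 (adjusted p = 0.582) was not called. Dbp had 3.94 ± 0.56 and 0.68 ± 0.31, a difference of 3.26 ± 0.68 (adjusted p = 0.0594), and Ccnd1 2.01 ± 0.35 and -0.94 ± 0.47, a difference of 2.94 ± 0.62 (adjusted p = 0.0594). Genotype and count table coincide, so a shift between tables that depends on oxygen and time cannot be told apart from genotype.

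Wild-type livers from mice in a light-dark cycle, 16 libraries exposed at the matching zeitgeber times, gave 195 called interactions of 9451 genes (2.06%). Of the 138 genes called in darkness 136 were measured there, and 102 had the same sign. Called in both were 25, which is 18.4% of the darkness list and 13.2% of the light-dark list, 23 of them with the same sign. Of the 19 glucocorticoid-induced genes 3 were called lower and 1 higher in light-dark (median -0.29), beside 1.25% and 0.815% of all genes. The interactions in darkness and in the light-dark cycle differed for 23 of 9499 genes (0.242%), 6 higher and 17 lower in darkness, for 30 of 9660 without library a (0.311%), and for 75 by DESeq2. It was 15 genes without the darkness 6% liver c of CT4-8, without the darkness 21% liver b of CT16-20 or without the light-dark 21% liver a of hours 16-20. Fkbp5 had the smallest p, with an interaction of -1.45 ± 0.25 in darkness and 1.43 ± 0.29 in light-dark, a difference of -2.89 ± 0.40 (adjusted p = 1.13e-04). The lipid droplet genes Plin5 and Plin4 differed too, with -1.77 ± 0.22 and 0.13 ± 0.24 for Plin5, a difference of -1.91 ± 0.33 (adjusted p = 0.00419), and -2.27 ± 0.47 and 0.90 ± 0.30 for Plin4, a difference of -3.18 ± 0.58 (adjusted p = 0.00497). Susd6 and Tns1 had differences of -1.61 ± 0.33 (adjusted p = 0.0115) and -1.29 ± 0.28 (adjusted p = 0.0327).

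Plin4, Usp2 and Por were chosen after their values were seen. For Usp2, a deubiquitinase under clock control, the interaction was -0.90 ± 0.37 in darkness and 1.76 ± 0.25 in light-dark, a difference of -2.67 ± 0.47 (adjusted p = 0.0046). Por, the electron donor of microsomal P450 enzymes, had 0.00 ± 0.23 and 1.68 ± 0.21, a difference of -1.68 ± 0.32 (adjusted p = 0.00497). Dbp had 3.94 ± 0.56 in darkness and 3.94 ± 0.52 in light-dark, with a difference of 0.00 ± 0.66 (adjusted p = 1). Arntl had -2.07 ± 0.48 and -3.85 ± 0.34, a difference of 1.75 ± 0.61 (adjusted p = 0.262). Cdkn1a and Srebf1 had -2.95 ± 0.29 and 1.51 ± 0.31 in light-dark, with differences from darkness of -0.30 ± 0.41 and -0.13 ± 0.41. An uncalled difference does not show that the regimens act alike. Light regimen and table coincide here as well.

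**Figure D5:**
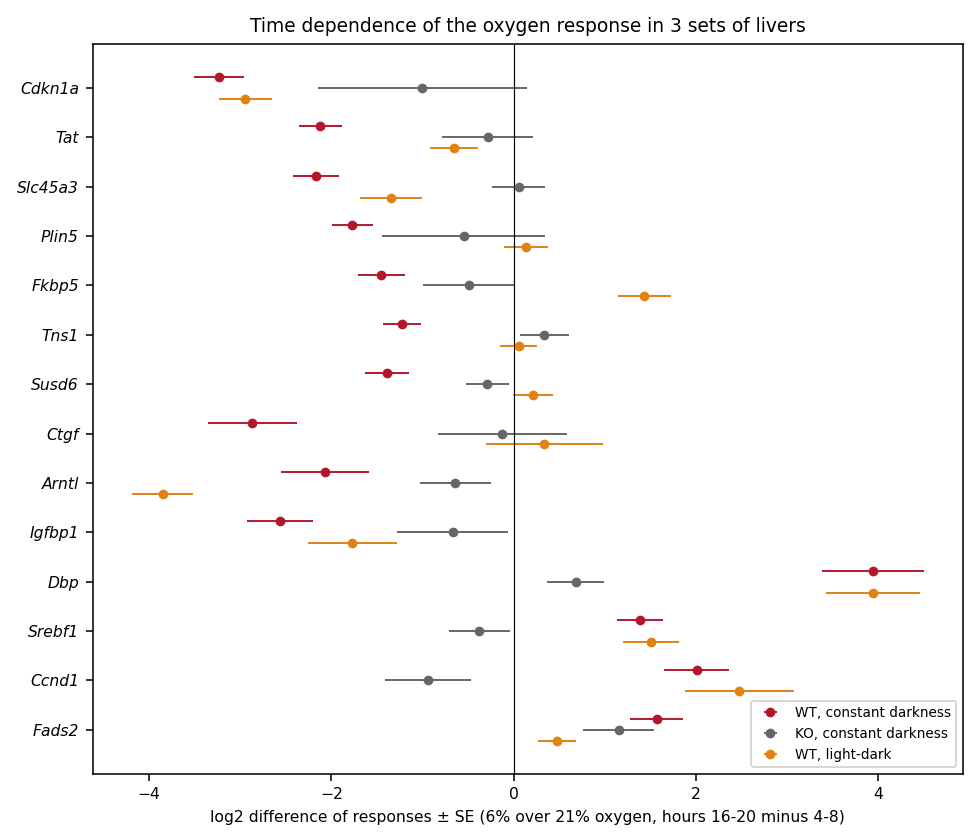
Interaction ± SE (log2 difference of the oxygen responses, hours 16-20 minus 4-8) of 14 genes in wild-type livers in constant darkness (red), KO livers in constant darkness (grey) and wild-type livers in light-dark (orange). Fkbp5 lies at -1.45 in darkness and 1.43 in light-dark, and Dbp at 3.94 in both but at 0.68 in KO.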

How the data were processed

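Liver RNA was linearly amplified by in-vitro transcription and sequenced, per the labels' protocols. STAR, HTSeq, cutadapt and bcl2fastq and the mm10 build are named in the submitters' processing notes. The files hold counts per gene as deposited by the authors, listing genes with at least 6 counts in some library, and which annotation and strand mode were used is not stated in those sources. Groups come from the labels, and libraries within each of the 4 groups were checked against copies of one another (24 pairs, 0 identical). Pairs across groups and the KO and light-dark libraries were not checked in this way. In R 4.3.3, edgeR 4.0.16 (with limma 3.58.1) kept genes by filterByExpr (minimum count 10, total 15), scaled by TMM and fitted a robust quasi-likelihood model on all 16 libraries, with 4 groups and no covariate. Benjamini-Hochberg adjustment of p-values covered every gene of a fit, and SE is the absolute log2 value over the root of F. The KO and light-dark differences came from joint fits. DESeq2 1.42.0, RLE scaling, no filter, thinning, a replicate block and leaving out libraries were alternatives. The scripts were tested on simulated data. The text names up to 14 genes in each direction by smallest p, up to 4 per gene list, and fixed clock, hypoxia and metabolic genes. Members outside that rule (Sgk1, Mt1, Zbtb16, Klf15, Klf9, Ccnb2, Wrnip1, Abtb2, 1700017B05Rik, Plin4, Usp2 and Por) were chosen after their values were seen. The comparison and the gene lists were chosen with earlier results of these data known. Some genes the rule names are not reported here. Gene positions were matched by name for 8221 of 8507 genes, and for 258 through a synonym.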

Additional observations from a re-analysis of the deposited data

Results flagged for a closer look

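By Dixon's test 19 of 288 groups (a gene in 1 group of 4 livers) held a liver far from the other 3, and chance flags about 1 in 20 groups. In 6% oxygen at CT16-20 these were Errfi1 at 692 CPM, Klf15 at 508 CPM, Slc45a3 at 36.9 CPM, Cyp4a14 at 195 CPM, Nr1d2 at 2.08 CPM, Insig1 at 115 CPM and Gadd45a at 17.9 CPM, each in 1 liver. In 21% oxygen at CT16-20 they were Tat at 3760 CPM, Errfi1 at 553 CPM, Fam20c at 43.5 CPM and Cox8a at 155 CPM. In 6% oxygen at CT4-8, liver a held Cebpb at 925 CPM, Ccnd1 at 32.7 CPM, Cenpm at 0 CPM and Rnf43 at 1.17 CPM. In 21% oxygen at CT4-8 library a, which stands apart as a whole, held Tef at 171 CPM, Elovl1 at 149 CPM and Ppara at 79.1 CPM, and liver c held Arntl at 1.35 CPM.

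The oxygen response differed between the circadian times, by the interaction test itself, for 138 genes. Among those given above, the difference (CT16-20 minus CT4-8, log2) was negative for Cdkn1a -3.23, Tat -2.12, Fkbp5 -1.45, Tsc22d3 -1.37, Errfi1 -1.16, Zbtb16 -1.75, Nfkbia -1.02, Klf15 -0.90, Slc45a3 -2.17, Plin5 -1.77, Ppp1r3c -2.63, Ppp1r3b -1.74, Igfbp1 -2.56, Tns1 -1.22, Ctgf -2.87, Susd6 -1.39, Fam222a -2.26, Angptl4 -1.47, Lpin1 -1.80, Cyp4a14 -3.65, Cebpb -0.88 and Arntl -2.07. It was positive for Dbp 3.94, Srebf1 1.39, Fads2 1.57, Elovl1 1.22, Mvd 2.54, Ccnd1 2.01, Ube2c 3.69, Cenpm 3.50, Mcm2 2.11, Mcm3 1.48, Ccnb2 3.19, Fam20c 1.62, Gjb2 1.16, Pcsk4 1.5, Tst 1.59, Sp5 2.22, Spns2 1.49, Eepd1 1.95, Myc 1.94, Gadd45a 2.89, Cox8a 1.02, Orm1 1.42 and Rnf43 2.42. Also called and negative were Plin4 -2.27, Wrnip1 -1.15 and 1700017B05Rik -2.55. The interaction differed between wild-type and KO livers for 4 genes and between darkness and light-dark for 23 genes. No explanation was weighed for these values.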

How the results depend on the processing

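The interaction was called for 138 genes under RLE size factors (136 shared), 128 without a filter on low counts, 105 after thinning to the smallest library and 195 by DESeq2 (131 shared). With the library letter as a replicate block it was called for 104 genes (98 shared), although the letters do not pair the livers (24 same-letter pairs, correlation of deviations -0.16 to 0.10, median -0.01). DESeq2 called 191 genes between times in 6% oxygen, 18 for the KO difference and 75 for the light-dark difference. A fit on only the 8 libraries compared called 526 genes for oxygen at CT4-8, 123 for time in 21% oxygen and 310 for time in 6% oxygen. Leaving out 1 library at a time gave 68 to 197 genes for the interaction (lowest without the 21% liver b of CT16-20, highest without library a), 615 to 1033 for oxygen at CT4-8 and 585 to 1358 at CT16-20, 175 to 341 for time in 21% and 33 to 328 in 6% oxygen. In the joint fits, where leaving out libraries was added after seeing the data, it gave 0 to 19 for the KO and 15 to 33 for the light-dark difference. Of 45 called genes given in the text, 30 were called under every alternative run. This count leaves out Plin4, Wrnip1 and 1700017B05Rik, which were also called on all 16 libraries and whose alternatives are not given. Among uncalled interactions, that of Hif1a turned to 0.17 after thinning, and without 1 library the values ran from -0.027 to 0.37 for Ahsg, -0.54 to 0.38 for Ankrd37, -1.42 to 0.38 for Ccl5, -0.14 to 0.63 for Elovl6, -0.21 to 0.15 for Ppara and -0.048 to 0.65 for Slc2a1. The cause of these shifts was not tested. Depth of 1.65 to 2.97 M counts limits genes of few CPM, such as Cenpm and Arntl.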
